A study of Mus musculus with 18 samples.

Results

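Early osteogenic genes are the genes that limb mesenchyme switches on as it commits to making bone. The 6 examined here are Runx2, Sp7, Alpl, Spp1, Sparc and Ibsp. They were taken by gene symbol from the 23919 genes kept from the deposited expression tables, and all 6 were found at each of the 3 stages. The tables come from RNA sequencing of mouse embryos of strain C57BL/6, wild type or with a knockout (KO) of Pitx1, the Pitx1-/- genotype of the series design. PITX1 is a homeodomain transcription factor made in the hindlimb and not in the forelimb. The groups were wild type and Pitx1 KO at embryonic day 9.5 (E9.5), wild type and Pitx1 KO at E11.5, and wild type and Pitx1 KO at E12.5, with 3 libraries in each of the 6 groups and 18 in all. The hindlimb was sampled at E11.5 and E12.5. At E9.5 the sample was the hindlimb field together with its neighbouring trunk, so it held tissue that the later samples did not. The stretch of Pitx1 that the knockout removes, and whether a library is 1 embryo or a pool, are not stated in the labels. The p-values therefore measure the spread between these libraries, which may be technical.

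Bone of the limb skeleton forms on a cartilage model. Mesenchymal cells first condense into cartilage, and cells around and within that cartilage then become osteoblasts, the cells that lay down bone matrix. RUNX2 is the transcription factor that osteoblasts cannot form without, and it also acts in maturing cartilage. SP7 (osterix) is a zinc-finger transcription factor required after RUNX2. Alpl encodes tissue-nonspecific alkaline phosphatase, which frees phosphate for mineral and is also strongly made by primordial germ cells. Spp1 (osteopontin) and Ibsp (bone sialoprotein) encode secreted acidic phosphoproteins that bind integrins and mineral, and macrophages make osteopontin too. Sparc (osteonectin) encodes a collagen-binding matrix protein of bone that many mesenchymal and endothelial cells also make.

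RefSeq promoters (build GRCm38.p6, the 250 bases before the annotated start) were available for 5 of the 6 genes, with 7 promoters in all. Sp7 had no promoter available and was not searched. They were searched on both strands for the RUNX core TGTGGT and for TAATCC, the core read by PITX-type homeodomains. The windows of 3 members held a match, and they are printed 5′ to 3′ on the strand of the gene, with the matched letters in capitals. They were chosen because, among the 5 members searched, they are those whose own promoters carry either core. The Runx2 window is chr17:44814628-44814877 on the minus strand. The Spp1 window is chr5:104434861-104435110 on the plus strand and is 1 of the 2 listed for that gene. The Alpl window is chr4:137766476-137766725 on the minus strand and is also 1 of 2.
Runx2: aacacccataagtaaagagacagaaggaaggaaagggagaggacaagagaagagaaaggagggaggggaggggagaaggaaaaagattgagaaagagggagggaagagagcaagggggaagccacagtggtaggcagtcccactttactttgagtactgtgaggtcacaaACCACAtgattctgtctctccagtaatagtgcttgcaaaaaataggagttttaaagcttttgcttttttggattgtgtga
Spp1: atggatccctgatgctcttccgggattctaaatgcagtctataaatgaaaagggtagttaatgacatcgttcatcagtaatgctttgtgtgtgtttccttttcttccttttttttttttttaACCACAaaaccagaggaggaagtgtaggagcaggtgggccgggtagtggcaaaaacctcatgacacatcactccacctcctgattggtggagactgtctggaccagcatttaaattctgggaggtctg
Alpl: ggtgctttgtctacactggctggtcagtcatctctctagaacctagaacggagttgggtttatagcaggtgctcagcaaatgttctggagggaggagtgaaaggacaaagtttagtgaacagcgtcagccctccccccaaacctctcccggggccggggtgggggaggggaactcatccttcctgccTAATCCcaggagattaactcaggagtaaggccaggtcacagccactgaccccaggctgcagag
The capitals in Runx2, 80 to 75 bases before the start, and in Spp1, 128 to 123 bases before it, are ACCACA, the RUNX core read on the other strand. Those in Alpl, 63 to 58 bases before the start, are the PITX core. Of the 32851 promoters of the same length, 14.0% held the RUNX core and 6.25% held the PITX core on either strand, so neither is rare. A match describes the letters only and is not evidence of binding.

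Sequencing depth ranged from 14361919 to 60672151 fragments per library. At E9.5 every KO library was shallower than every wild-type library, and at E11.5 every KO library was deeper. Pitx1 RNA was lower in every KO library than in any wild-type library of its stage, at 18.3 to 25.0 against 48.5 to 58.8 RPKM at E9.5, 17.3 to 23.2 against 109 to 138 at E11.5 and 10.8 to 13.4 against 44.6 to 114 at E12.5. RPKM is the authors' value scaled for gene length and library size. The 44.6 RPKM belonged to wild-type replicate 3 at E12.5, which also stood apart in several matrix genes. Wild-type replicate 1 at E12.5 held 393 RPKM summed over 7 yolk sac and liver genes against 2.68 to 29.1 in the other libraries of that stage. Olig2 and Pax6, 2 of the 9 neural genes listed, lay at 3.32 to 15.6 RPKM in the E9.5 libraries and at no more than 0.160 RPKM later. Other neural RNA remained, as the 9 genes summed to 42.5 to 90.6 RPKM at E9.5 and 16.3 to 25.9 RPKM later.

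Measured RNA of the 2 osteoblast transcription factors was lower in Pitx1 KO hindlimbs at E11.5 and E12.5. For Runx2 and for Sp7 every KO library lay below every wild-type library. That pattern was shown by 14% of all genes tested at E11.5 and 10.3% at E12.5. Sparc showed the same separation with a smaller difference. Alpl and Spp1 overlapped between genotypes at every stage. Ibsp was measured at E9.5 and was at or near 0 fragments afterwards. By edgeR's quasi-likelihood test with Benjamini-Hochberg adjustment at 0.05, the Sparc difference at E11.5 was the single call among the members, and it was lost when most single libraries were left out. Runx2 and Sp7 passed at neither stage by that test. In whole tissue, fewer cells of a type and less RNA per cell cannot be told apart.

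**Figure D1:**
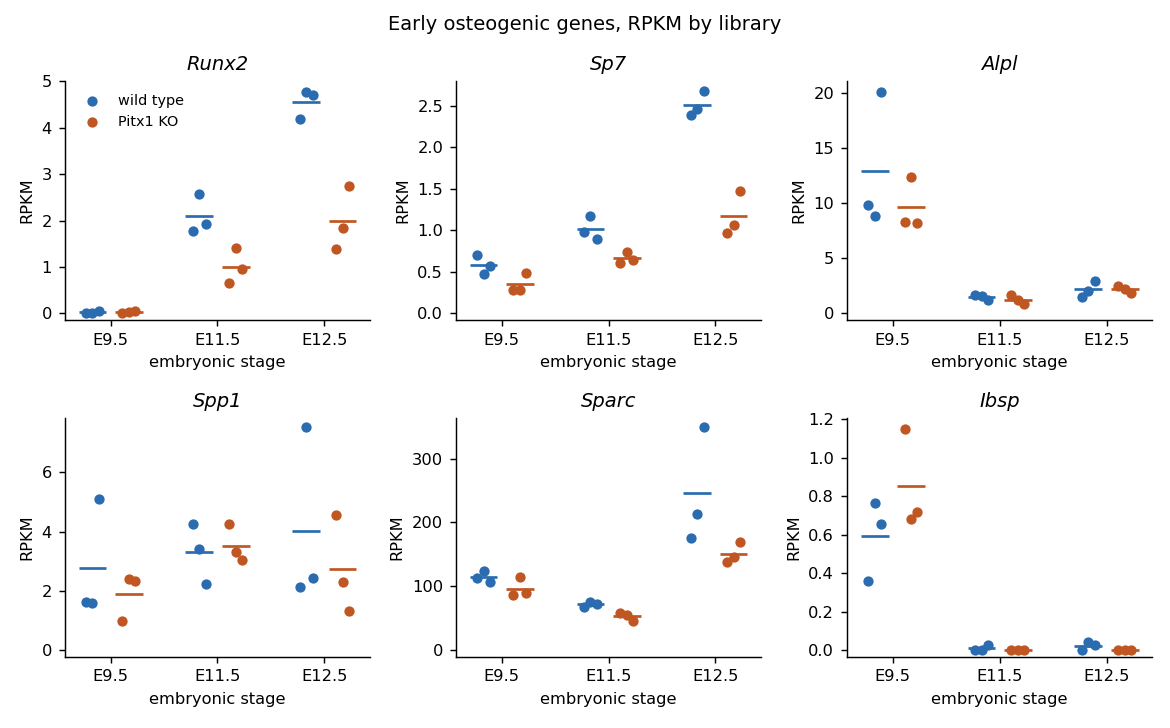
RPKM of the 6 early osteogenic genes in each of 18 libraries, by stage (x axis) and genotype (wild type blue, Pitx1 KO orange), with group means as bars. Runx2, Sp7 and Sparc separate the genotypes at E11.5 and E12.5, while Alpl and Ibsp are highest at E9.5.

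Runx2 was close to absent at E9.5. The wild-type libraries read 0, 0.0169 and 0.0507 RPKM and the KO libraries 0.0188, 0.0205 and 0.0595, from 9 and 8 fragments in all. The gene did not pass the low-count filter at that stage. The ratio of KO to wild type per unit of depth was 1.52, with a counting interval of 0.509 to 4.43 (95%, exact, counting error only), so no difference was detectable at this depth.

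At E11.5 Runx2 measured 1.77, 2.58 and 1.92 RPKM in the wild type and 0.649, 1.42 and 0.966 RPKM in the KO. The highest KO library lay below the lowest wild-type library, and the KO mean was 48.3% of the wild-type mean. Its log2 fold change, -1.05 ± 0.28 (SE), did not pass with edgeR (adjusted p = 0.0781) and passed with DESeq2 (adjusted p = 0.00212). Without KO replicate 2, the highest of its group, edgeR gave -1.37 with an adjusted p of 0.0324.

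At E12.5 the wild-type libraries read 4.18, 4.77 and 4.71 RPKM for Runx2, and the KO libraries read 1.40, 1.84 and 2.74. The wild-type values were tight and the KO values were more spread, with no overlap. On the log2 scale the difference was -1.17 ± 0.21 (SE), with an adjusted p of 0.149 by edgeR and 1.58e-05 by DESeq2. Leaving out any 1 library kept the fold change between -1.45 and -0.98, and none of these 6 edgeR fits called it.

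Sp7, which acts downstream of RUNX2, was already detectable at E9.5. Its wild-type libraries then measured 0.709, 0.472 and 0.570 RPKM and its KO libraries 0.283, 0.287 and 0.484. KO replicate 3 lay just above the lowest wild-type library, so the genotypes overlapped. The log2 fold change of -0.75 ± 0.45 (SE) did not pass with edgeR (adjusted p = 0.999) and rested on 116 wild-type and 39 KO fragments.

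Sp7 at E11.5 stood at 0.975, 1.17 and 0.897 RPKM in the wild type and at 0.609, 0.735 and 0.645 in the KO. The groups did not overlap, and the KO mean was 65.3% of the wild-type mean. Its log2 fold change was -0.61 ± 0.27 (SE, edgeR adjusted p = 0.221). DESeq2 did not call it either (adjusted p = 0.246).

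By E12.5 the gap in Sp7 was wider in absolute terms. The 3 wild-type libraries read 2.39, 2.47 and 2.68 RPKM and the 3 KO libraries 0.966, 1.07 and 1.47. Every KO library was again lower, and the mean was 46.6% of the wild-type mean. This gave a log2 fold change of -1.10 ± 0.22 (SE), with an adjusted p of 0.150 by edgeR and 0.00197 by DESeq2. For Runx2 the KO mean at that stage was 43.7% of the wild-type mean.

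**Figure D2:**
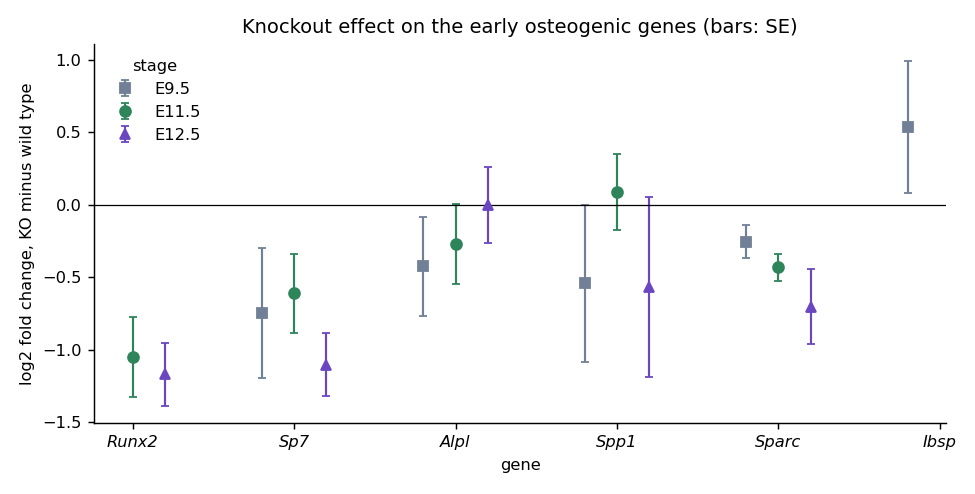
Log2 fold change (KO minus wild type, y axis) of the members that passed the low-count filter, at E9.5 (squares), E11.5 (circles) and E12.5 (triangles), with bars of 1 SE. Runx2 and Sp7 sit near -1.1 at E12.5, Alpl at -0.00, and Ibsp has a value at E9.5 alone because it was filtered out later.

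Alpl followed another course. At E9.5 it read 9.82, 8.87 and 20.1 RPKM in the wild type and 8.26, 12.4 and 8.22 in the KO. Wild-type replicate 3 was far above its group, and the other 5 libraries lay between 8.22 and 12.4 RPKM. The log2 fold change of -0.43 ± 0.34 (SE, edgeR adjusted p = 0.999) came to 0.04 without that library.

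Alpl was lower at E11.5, with 1.71, 1.60 and 1.22 RPKM in the wild type and 1.65, 1.19 and 0.881 RPKM in the KO. The groups overlapped, and the log2 fold change was -0.27 ± 0.27 (SE, edgeR adjusted p = 0.594). At E12.5 the libraries held 1.51, 2.06 and 2.94 RPKM in the wild type and 2.49, 2.17 and 1.87 in the KO. The KO values fell inside the wild-type range, whose top is wild-type replicate 3, with a log2 fold change of -0.00 ± 0.26 (SE, edgeR adjusted p = 0.997). Without that library it was 0.29 ± 0.23 (SE, edgeR adjusted p = 0.628).

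Spp1 varied more within groups than between them. At E9.5 the wild type read 1.62, 1.58 and 5.09 RPKM and the KO 0.969, 2.41 and 2.33. Wild-type replicate 3, the library highest in Alpl, was also highest here. The log2 fold change of -0.54 ± 0.54 (SE, edgeR adjusted p = 0.999) turned to 0.24 without it.

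Spp1 at E11.5 stood at 4.24, 3.41 and 2.25 RPKM in the wild type and 4.25, 3.31 and 3.04 RPKM in the KO, nearly the same range. Its log2 fold change was 0.09 ± 0.26 (SE, edgeR adjusted p = 0.876). At E12.5 the wild type held 2.12, 7.52 and 2.43 RPKM and the KO 4.55, 2.29 and 1.33. Replicate 2 set the wild-type mean, and the log2 fold change of -0.57 ± 0.62 (SE, edgeR adjusted p = 0.690) turned to 0.25 without it.

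The E9.5 libraries that were high in Alpl were low in neural genes. Summed over 9 neural genes, wild-type replicates 1, 2 and 3 held 66.6, 77.7 and 43.5 RPKM and KO replicates 1, 2 and 3 held 90.6, 42.5 and 87.9. Replicate 3 of the wild type and replicate 2 of the KO thus had the lowest neural sum of their genotype and the highest Alpl and Spp1. The 9 primordial germ cell genes summed to 16.5, 18.5 and 19.8 RPKM in the wild type and 14.5, 20.4 and 13.5 RPKM in the KO, highest in the same 2 libraries. The 10 muscle genes were highest in these 2 libraries too, at 65.8 and 72.2 RPKM. The 12 endothelial genes were highest in replicate 2 of each genotype. The part of trunk tissue, of muscle and of germ cells in the Alpl and Spp1 values was not tested.

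**Figure D3:**
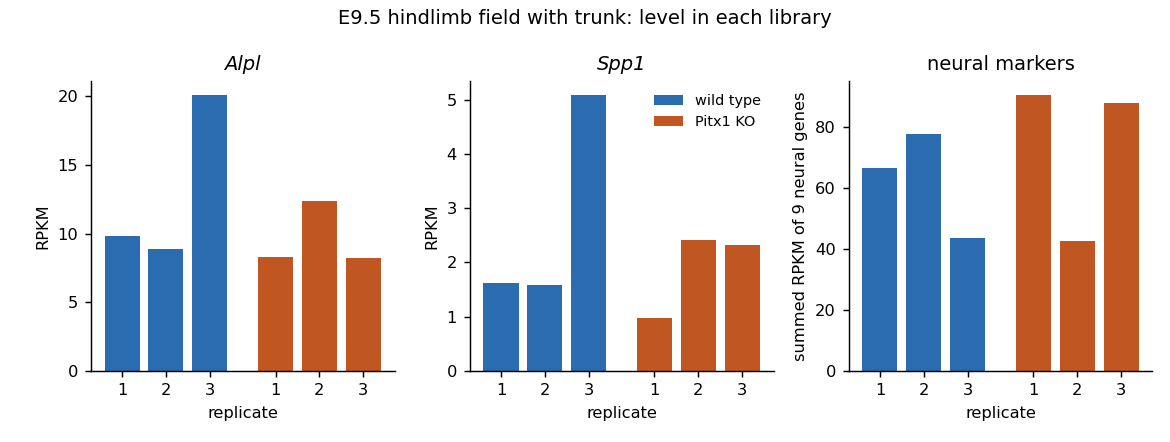
RPKM of Alpl and Spp1 and the summed RPKM of 9 neural genes (y axes) in each E9.5 library, numbered by replicate, wild type blue and Pitx1 KO orange. Wild-type replicate 3 and KO replicate 2 have the highest Alpl of their genotype (20.1 and 12.4 RPKM) and the lowest neural sum (43.5 and 42.5 RPKM).

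Ibsp, a marker of more mature osteoblasts, gave its highest readings at E9.5, where the sample also held neighbouring trunk. The part of trunk tissue in these readings was not tested. At E9.5 the wild-type libraries measured 0.361, 0.764 and 0.655 RPKM and the KO libraries 1.15, 0.682 and 0.719, from 87 and 83 fragments. The groups overlapped, and the log2 fold change was 0.54 ± 0.46 (SE, edgeR adjusted p = 0.999). At E11.5 the wild type held 2 fragments in 1 library and the KO held 0 of 165665034 fragments, which allows up to 0.0181 CPM, the fragments scaled to library size (3 counts over the group, counting error only). At E12.5 the wild type held 4 fragments in all, with 0, 0.0401 and 0.0270 RPKM, and the KO held 0 of 74999621, which allows up to 0.0400 CPM. Ibsp was not tested at these stages, and a KO difference was not detectable at this depth.

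Sparc was by far the most abundant member per kilobase. At E9.5 it read 113, 123 and 107 RPKM in the wild type and 85.6, 114 and 88.8 in the KO. KO replicate 2 overlapped the wild type, and the log2 fold change was -0.26 ± 0.12 (SE, edgeR adjusted p = 0.999).

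At E11.5 Sparc fell in the KO. The wild type measured 67.1, 75.8 and 72.5 RPKM and the KO 57.3, 55.7 and 46.3 RPKM, with a clear gap between the groups. The log2 fold change was -0.43 ± 0.09 (SE, edgeR adjusted p = 0.0482), and the KO mean was 74.0% of the wild-type mean. DESeq2 also called it (adjusted p = 0.00151). The edgeR call ended without any 1 of 5 libraries (adjusted p from 0.0550 to 0.207) and stayed without KO replicate 1 (adjusted p = 0.0324), while the fold change ranged from -0.49 to -0.34. Limma on log2(RPKM + 1) gave an adjusted p of 0.0641. Counting these fits, the call was lost in 10 of the 14 alternative settings and kept in 4.

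Sparc at E12.5 stood at 176, 214 and 349 RPKM in the wild type and at 139, 146 and 169 in the KO. The highest KO library was just under the lowest wild-type library, and wild-type replicate 3 was far above the rest. The log2 fold change of -0.70 ± 0.26 (SE) did not pass (adjusted p = 0.307, edgeR; 0.266, DESeq2). Without wild-type replicate 3 it was -0.36 ± 0.11 (adjusted p = 0.271, edgeR), close to the value at E11.5.

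That library was also highest in other matrix genes. Col1a1, the main bone collagen chain, read 88.2, 133 and 208 RPKM in wild-type replicates 1, 2 and 3 at E12.5 and 64.0, 73.9 and 81.1 in the KO. Col1a2, its partner chain, read 287, 348 and 489 in the wild type and 276, 271 and 313 in the KO. The same library had the lowest Pitx1 and the lowest Sox9 of its group, Sox9 (the master factor of cartilage) reading 65, 50 and 35.5 RPKM. Runx2 was not highest in that library. Sp7 was, at 2.68 RPKM against 2.39 and 2.47, although the 3 wild-type values at E12.5 differed little for both genes. The part of this library's tissue make-up in the Sparc value was not tested.

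**Figure D4:**
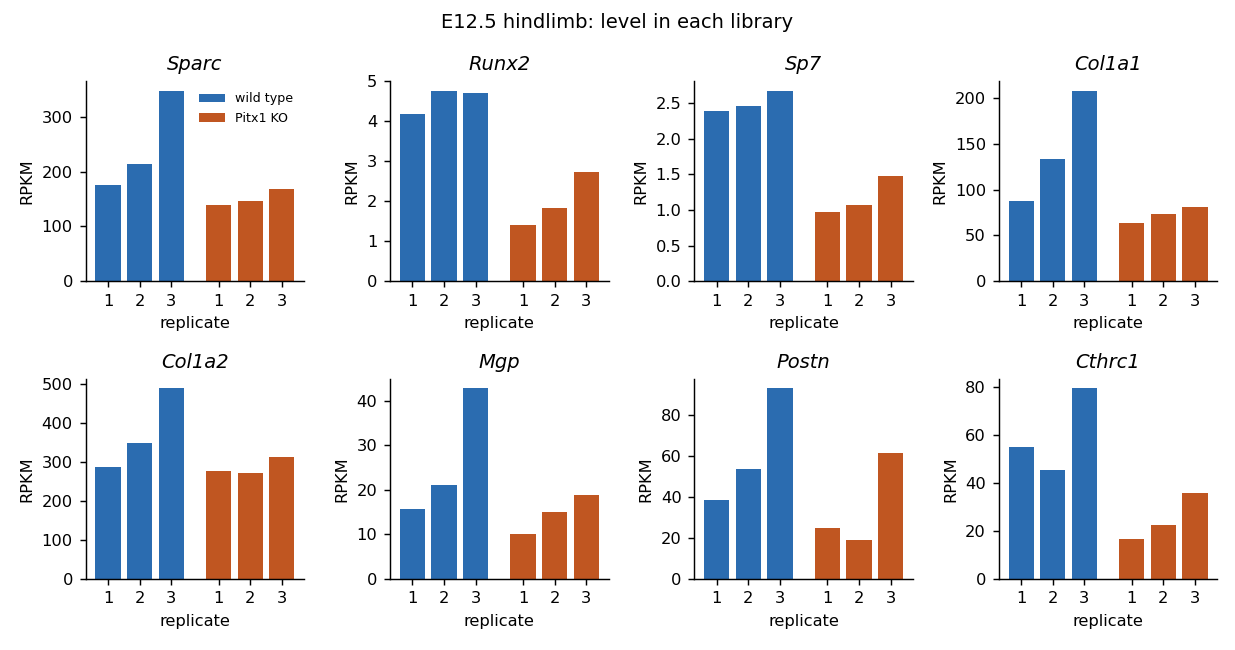
RPKM (y axes) of Sparc, Runx2, Sp7 and 5 matrix genes in each E12.5 library, numbered by replicate, wild type blue and Pitx1 KO orange. Wild-type replicate 3 is highest in Sparc (349), Col1a1 (208), Col1a2 (489), Mgp (42.8), Postn (92.8) and Cthrc1 (79.6), of which the last 3 were chosen after their values were seen. It is also highest in Sp7 (2.68), by a small margin, but not in Runx2.

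Read against all genes tested, the members' counts were as follows. At E9.5, 0 of the 5 members tested were called, where 0.0217% of 13804 genes were called by edgeR, and 0 had an unadjusted p under 0.05, where 4.01% of all genes did. DESeq2 likewise called 0 members and 0.141% of genes. No member had all KO libraries below all wild-type libraries, a pattern that 4.59% of genes showed.

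At E11.5, 1 of the 5 members tested was called, where edgeR called 1.96% of 14601 genes. DESeq2 called 2, Runx2 and Sparc, and 8.9% of all genes. For 3 members (Runx2, Sp7, Sparc) KO library lay below every wild-type library, against 14% of all genes. The median log2 fold change of the 5 members was -0.43, and that of all genes was -0.01.

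At E12.5 edgeR called 0 of the 5 members tested and 0.0138% of 14494 genes. An unadjusted p under 0.05 was found for 3 members (Runx2, Sp7, Sparc) and for 15.1% of genes, and the same 3 had no overlap with the KO below, where 10.3% of genes had that pattern. DESeq2 called 2, Runx2 and Sp7, and 3.04% of genes. The members' median log2 fold change was -0.70, against -0.00 for all genes. That median is the value of Sparc, and without wild-type replicate 3 the median was -0.83, with 4 of 5 members negative.

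Across stages, levels are given as CPM (TMM-scaled over the 18 libraries), because the authors normalized each stage's RPKM table separately. Between E11.5 and E12.5, Runx2, Sp7 and Sparc rose in both genotypes. Runx2 went from 12 ± 2.71 to 24.4 ± 1.87 CPM in the wild type (SD, n = 3), a log2 change of 1.04 ± 0.28 (SE, edgeR adjusted p = 0.0134). In the KO it went from 5.80 ± 2.15 to 10.9 ± 3.53 CPM, a log2 change of 0.91 ± 0.28 (SE, edgeR adjusted p = 0.0221). Leaving out single libraries kept 4 of 6 of the wild-type calls and 3 of 6 of the KO calls of Runx2, the calls ending without wild-type replicate 1 or 3 of E11.5 (0.93 and 0.97), without KO replicate 1 or 3 of E11.5 (0.68 and 0.89) or without KO replicate 3 of E12.5 (0.63).

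Sp7 rose from 2.28 ± 0.31 to 5.31 ± 0.35 CPM in the wild type, a log2 change of 1.24 ± 0.22 (SE, edgeR adjusted p = 0.00144). The KO rise was from 1.5 ± 0.15 to 2.48 ± 0.56 CPM, or 0.74 ± 0.22 on the log2 scale (SE, edgeR adjusted p = 0.0188). The KO call ended without KO replicate 1 or 3 of E11.5 or KO replicate 3 of E12.5, with log2 changes of 0.54 to 0.71. Sparc rose from 189 ± 11 to 610 ± 229 CPM in the wild type (log2 change 1.71 ± 0.21 with its SE, and edgeR adjusted p = 0.000616) and from 140 ± 16.3 to 376 ± 37.4 CPM in the KO (1.43 ± 0.21 with its SE, and edgeR adjusted p = 0.000589). Wild-type replicate 3 of E12.5 held 870 of those CPM, against 436 in the lowest library of its group, and without it the wild-type change was 1.37 ± 0.11 (SE, edgeR adjusted p = 0.00012). Each Sparc call held without any 1 library.

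Of the 5 members tested between these stages, 3 rose in the wild type, where 17.1% of 15324 genes rose, and 3 in the KO, where 20.4% did. Alpl changed by 0.46 ± 0.28 in the wild type and by 0.73 ± 0.28 in the KO (SE, edgeR adjusted p = 0.215 and 0.0524). Spp1 changed by 0.20 ± 0.51 and -0.47 ± 0.51 (SE, edgeR adjusted p = 0.797 and 0.488). Neither passed, although the Alpl value in the KO was close to the threshold and DESeq2 called it (adjusted p = 0.0322).

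Whether the knockout effect itself differed between E11.5 and E12.5 was tested as an interaction. The difference was -0.50 ± 0.31 for Sp7, -0.28 ± 0.29 for Sparc and -0.13 ± 0.39 for Runx2 on the log2 scale (SE, edgeR adjusted p = 0.591, 0.777 and 0.931). It was 0.26 ± 0.39 for Alpl and -0.67 ± 0.72 for Spp1. No member passed with edgeR, which called 0.00653% of genes, none had an unadjusted p under 0.05 (10.3% of genes) and none passed with DESeq2 (0.734% of genes). The SEs are wide, so equal effects at both stages were not shown either.

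The order of levels was the same at the top for both transcription factors. For Runx2 the E12.5 wild type (24.4 CPM) stood above all other groups, the E11.5 wild type (12) and the E12.5 KO (10.9) overlapped, the E12.5 KO also overlapped the E11.5 KO (5.80), and the E9.5 groups were lowest at 0.176 and 0.135. For Sp7 the E12.5 wild type (5.31 CPM) was again alone at the top, and the E12.5 KO (2.48) overlapped the E11.5 wild type (2.28). The E11.5 KO (1.5) overlapped the E9.5 wild type (1.37), which overlapped the E9.5 KO (0.821). The overlap between the E12.5 KO and the E11.5 wild type was partial for both genes, with the lowest KO library under the wild-type range for Runx2 and the highest KO library over it for Sp7, and it was not tested.

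For Sparc the order was E12.5 wild type (610 CPM), E12.5 KO (376), E9.5 wild type (315), E9.5 KO (264), E11.5 wild type (189) and E11.5 KO (140), with overlap between the E9.5 groups alone among neighbours. Alpl ran from 33.9 CPM in the E9.5 wild type and 25.1 in the E9.5 KO, which overlapped, to between 3.13 and 5.16 in the 4 later groups, each of which overlapped its neighbour. Spp1 had means of 2.60 to 4.97 CPM, and every neighbouring pair overlapped. Ibsp held 1.68 CPM in the E9.5 KO and 1.17 in the E9.5 wild type, which overlapped, and no more than 0.0397 CPM in any later group.

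The step from E9.5 to E11.5 also changed the tissue sampled, so time and tissue cannot be told apart in it. Runx2 rose, at 115.1 times the E9.5 level per unit of depth in the wild type (95% counting interval 60.4 to 252) and 35.2 times in the KO (17.8 to 81.7), with adjusted p of 3.63e-06 and 4.63e-05 by edgeR. Few E9.5 fragments stand behind these ratios, and leaving out 1 library moved the fitted log2 change between 5.82 and 8.24 in the wild type, the highest without wild-type replicate 3 of E9.5, and between 4.62 and 5.98 in the KO. Alpl fell by 3.17 ± 0.34 on the log2 scale in the wild type and by 3.02 ± 0.34 in the KO (SE, edgeR adjusted p = 1.1e-05 and 2.06e-05). Sparc fell by 0.75 ± 0.11 and by 0.93 ± 0.11 (SE, edgeR adjusted p = 7.53e-05 and 1.54e-05).

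Ibsp also fell over that step. Its E9.5 level was 60.7 times the E11.5 level in the wild type (counting interval 16.3 to 509, edgeR adjusted p = 0.00019). The KO held 0 fragments at E11.5, and its E9.5 level was 91.8 times a floor of 3 counts over the group (edgeR adjusted p = 3.81e-05). That value leaves out the counting error of the E9.5 fragments and is not a lower bound. The wild-type ratio rests on 1 library of E11.5, replicate 3, which held both fragments, and without it the E11.5 wild type is at 0. Leaving out any other library of the contrast gave a fitted log2 change of -6.11 to -5.32. Its E9.5 level was 23.0 times that of E12.5 in the wild type (8.67 to 86.4). In the KO it was 41.6 times a floor of 3 counts over the E12.5 group, again not a lower bound. Sp7 changed by 0.71 ± 0.33 and 0.85 ± 0.35 (SE, edgeR adjusted p = 0.0806 and 0.0570) and Spp1 by 0.21 ± 0.45 and 0.84 ± 0.46 (SE, edgeR adjusted p = 0.711 and 0.149), none of which passed.

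In each genotype 1 of the 6 members rose and 3 fell from E9.5 to E11.5. Runx2, the 1 that rose, passed the low-count filter of this fit only through E11.5. Ibsp, 1 of the 3 that fell, passed it only through E9.5. The filter thus fixed their direction in advance, and their calls and adjusted p-values over this step are not support for a change. Among 15372 genes 28.3% rose and 27.6% fell in the wild type, and 25% rose and 25.5% fell in the KO. No member's knockout effect differed between E9.5 and E11.5 by edgeR, which called 0.026% of genes, at an unadjusted p under 0.05 (15.2% of genes) or by DESeq2 (2.83% of genes). The SEs were widest for Ibsp (-3.02 ± 1.57, adjusted p = 0.384, edgeR) and Runx2 (-1.56 ± 1.12, adjusted p = 0.530, edgeR), each of which had few fragments at 1 of these stages.

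The wider osteogenic programme was followed through lists of other genes. Of 15 other regulators of osteoblasts, 13 of them tested at E9.5, 1 passed at E11.5, where 1.96% of all genes did. None passed at E9.5 or E12.5. The gene that passed was Mef2c, a transcription factor of muscle and maturing cartilage, at 4.47, 6.46 and 4.07 RPKM in the wild type and 3.12, 2.47 and 2.62 in the KO at E11.5. Every KO library was lower, and the log2 fold change was -0.87 ± 0.17 (SE, edgeR adjusted p = 0.0455). At E12.5 it was -0.70 ± 0.22 (SE, edgeR adjusted p = 0.265). The most abundant regulators, Atf4, Twist1 and Cbfb, had log2 fold changes between -0.29 and 0.21 at these 2 stages, and none passed. CBFB is the binding partner of the RUNX proteins, and its RNA read 86.2, 70.1 and 90.8 RPKM in the wild type and 82.9, 81.7 and 80.4 RPKM in the KO at E12.5, a full overlap.

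The other RUNX genes were chosen for description after their values were seen. Runx3 at E12.5 read 2.57, 2.86 and 2.64 RPKM in the wild type and 0.737, 1.12 and 1.74 in the KO, with no overlap and a log2 fold change of -1.16 ± 0.28 (SE, edgeR adjusted p = 0.184). Runx1 gave -0.95 ± 0.26 at E11.5 and -0.48 ± 0.21 at E12.5 (SE, edgeR adjusted p = 0.0760 and 0.334). Neither passed. At E12.5 Dlx5 and Msx2, homeobox genes that act upstream of osteoblast formation, gave 0.10 ± 0.16 and 0.22 ± 0.19 (SE, edgeR adjusted p = 0.803 and 0.598). Their change of the knockout effect from E11.5 to E12.5 was 0.47 ± 0.49 and -0.26 ± 0.38 (SE, edgeR adjusted p = 0.775 and 0.845). The E12.5 values therefore do not describe E11.5.

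**Figure D5:**
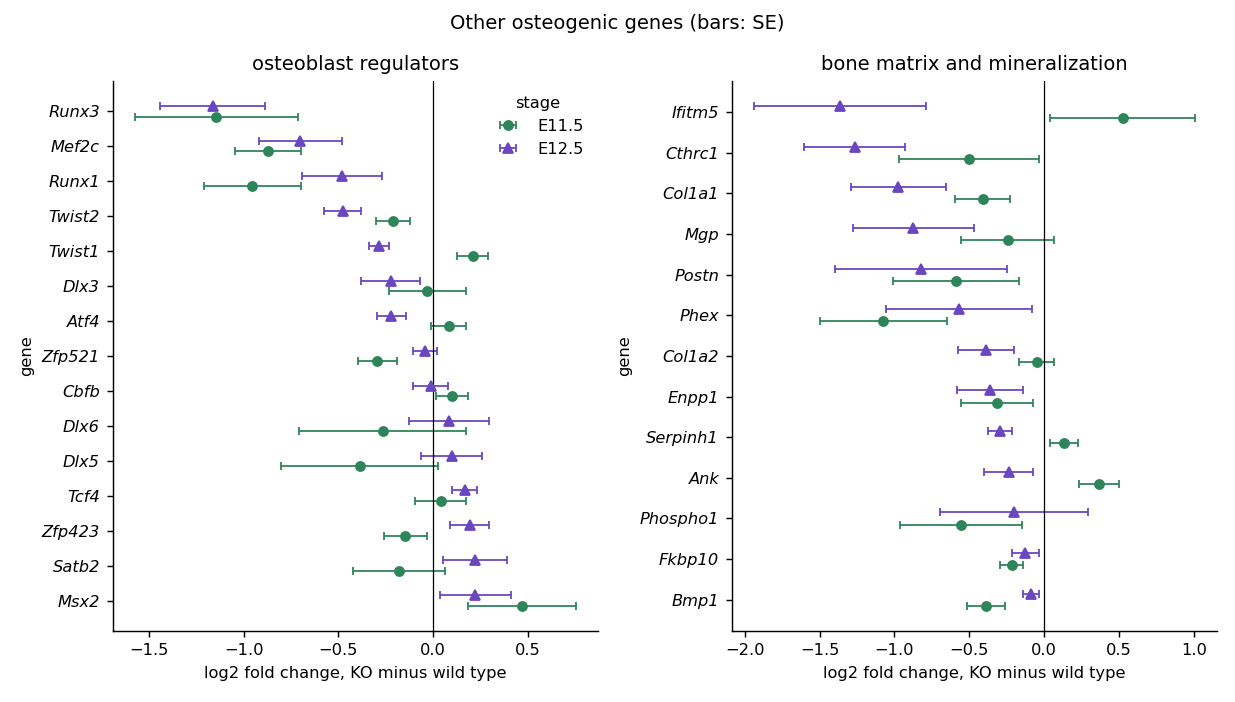
Log2 fold change (KO minus wild type, x axis) with bars of 1 SE for the other osteoblast regulators (left) and the bone matrix and mineralization genes (right) tested at E11.5 (circles) or E12.5 (triangles), ordered by the E12.5 value. All 13 matrix genes tested at E12.5 lie below 0 (11 of 13 without wild-type replicate 3), and the regulators fall on both sides of it.

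Among 18 other genes of bone matrix and mineralization, 12 or 13 were tested at each stage and none passed. At E12.5 all 13 tested had a negative log2 fold change, with a median of -0.39, whereas 50.1% of all genes were negative. Wild-type replicate 3 summed to 1649 RPKM over the 18 genes, against 1113 and 1284 in the other wild-type libraries and 935 to 1120 in the KO. Without it 11 of 13 were negative, with a median of -0.15, and 48.7% of all genes were. At E11.5, 10 of 13 were negative, with a median of -0.32. The 3 most abundant were Serpinh1, the collagen chaperone, Col1a2 and Col1a1. Col1a1 gave -0.97 ± 0.32 and Serpinh1 -0.29 ± 0.08 at E12.5 (SE, edgeR adjusted p = 0.280 and 0.213). Without wild-type replicate 3 they gave -0.60 ± 0.20 and -0.23 ± 0.07 (SE, edgeR adjusted p = 0.360 and 0.234). Among genes of later bone, chosen after their values were seen, Bglap2 (osteocalcin) and Mepe were at 0 RPKM in every library of E11.5 and E12.5, and Dmp1, of osteocytes, reached 0.135 RPKM at most. Bglap, the other osteocalcin gene, read up to 1.14 RPKM, and Ifitm5, Phospho1 and Phex reached 2.33, 1.32 and 1.13 RPKM in those libraries.

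Of 11 hypertrophic cartilage genes and signals, 7 were tested at E9.5 and at E11.5 and 10 at E12.5. Only 1 passed in a genotype comparison, at E11.5, where 1.96% of all genes passed. Bmp7, a bone-inducing growth factor, was higher in the KO at E11.5, at 25.1, 26.4 and 24.8 RPKM against 20.2, 17.6 and 18.1 in the wild type. Its log2 fold change was 0.45 ± 0.08 (SE, edgeR adjusted p = 0.0257), and at E12.5 it was -0.02 ± 0.07. Ihh, picked with its values in view, is the cartilage signal that induces osteoblasts in the tissue around it. It read 3.64, 4.39 and 1.66 RPKM in the wild type and 0.542, 1.09 and 1.72 in the KO at E12.5, with overlap through wild-type replicate 3 (log2 fold change -1.52 ± 0.49 with its SE, and edgeR adjusted p = 0.262).

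Panx3, a channel of hypertrophic cartilage and osteoblasts that was also chosen after its values were seen, read 0.349, 0.987 and 2.03 RPKM in the wild type and 0.0362, 0 and 0 RPKM in the KO at E12.5. The groups did not overlap, and the test did not pass (adjusted p = 0.125, edgeR). Col10a1, the collagen of hypertrophic cartilage, was low in both genotypes, at 0.381, 0.636 and 1.15 RPKM in the wild type and 0.272, 0.502 and 0.594 in the KO.

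The same lists were counted between stages. From E11.5 to E12.5 in the wild type, 7 of 15 regulators rose and 1 fell, 10 of 14 matrix genes rose, and 7 of 10 hypertrophic genes rose, where 17.1% of all genes rose and 16.3% fell. In the KO 8 of 15 regulators rose and 3 fell, 8 of 14 matrix genes rose, and 6 of 10 hypertrophic genes rose, where 20.4% of all genes rose and 21.1% fell. No gene of these 3 lists had a knockout effect that differed between the 2 stages by edgeR.

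Genes of other tissues moved with genotype beside the members. At E11.5, 4 of 15 cartilage genes fell, among them Sox9 (log2 fold change -0.79 ± 0.12 with its SE, and edgeR adjusted p = 0.0198) and Col2a1, the main cartilage collagen (-1.12 ± 0.17 with its SE, and edgeR adjusted p = 0.0317), the other two being Matn1 and Lect1. Of all genes tested at that stage 1.01% fell and 0.945% rose. The 15 summed to 286 to 408 RPKM in the wild type against 156 to 229 in the KO at E11.5, and at E12.5 the sums were 626 to 696 and 379 to 497. RUNX2 is also made in cartilage, and the part of a smaller cartilage share in the Runx2 and Sp7 values was not tested.

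The 15 macrophage genes found, none of which passed, summed to 31.7 to 42.0 RPKM in the wild type against 25.5 to 28.6 in the KO at E11.5, and to 61.9 to 75.6 and 41.3 to 54.7 at E12.5, with no overlap. Spp1, which macrophages also make, overlapped between genotypes at both stages. The 10 osteoclast genes summed to 34.2 to 47.3 RPKM in the wild type against 22.6 to 28.3 in the KO at E12.5. Ctsk, an osteoclast protease, read 5.64, 8.19 and 13.4 RPKM in the wild type at E12.5 and 3.43, 3.93 and 5.20 in the KO, Acp5 and Nfatc1 were also lower in every KO library, and Mmp9 overlapped, while the fusion gene Dcstamp was at 0 and Atp6v0d2 did not exceed 0.0306 RPKM. None of these passed, and they were picked with their values in view. Of all genes tested at E12.5, 10.3% had every KO library below every wild-type library. Ctsk at E11.5 went the other way, with a log2 fold change of 0.30 ± 0.29 (SE, edgeR adjusted p = 0.570). The 12 endothelial genes, a source of Sparc, overlapped, at 154 to 192 RPKM in the wild type against 145 to 168 in the KO at E12.5 and at 116 to 137 and 113 to 121 at E11.5. The 10 muscle genes, of which Mef2c is a known regulator, summed to 51.0 to 168 RPKM in the wild type against 17.5 to 29.9 in the KO at E11.5, and none passed. Of 5 yolk sac and liver genes tested at E11.5, 2 fell, Afp and Apob, where 1.01% of all genes fell. The part of these cells in the members' values was not tested.

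The genes whose profiles over the 18 libraries were most like each member were found by the root mean square difference of log2 CPM, each profile centred on its own mean, among 15448 genes. These profiles share libraries and are dominated by stage. Col12a1, Col25a1 and Nfia came closest to Runx2, at 0.59, 0.73 and 0.74 log2 units. Gatm, Ghr and Dusp10 came closest to Sp7, at 0.29, 0.31 and 0.34. Gprc5a, Dact2 and Lpar3 were nearest to Alpl, at 0.26, 0.31 and 0.38. Atp6v1g2, BC064078 and Fry were nearest to Spp1, at 0.52, 0.54 and 0.55. For Sparc they were S100a10, Adamts9 and Gamt, each at 0.28 to 0.29, and for Ibsp Popdc2, Ces1g and 2610100L16Rik, at 0.45 to 0.49. No member was among the 3 nearest of another.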

How the data were processed

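RNA of 18 mouse libraries was used in 6 groups of 3. Per the submitters' processing notes, the authors used FastQC, TopHat2 and Cuffdiff on build mm9. The labels state no version, annotation or strand setting, so fragments of overlapping genes may be mixed. The deposited raw fragments are estimated counts, per the file headers, and 1.79% of them were not whole and were rounded. The deposited RPKM values, normalized by the authors within each stage, give levels. Replicates numbered from 0 in the tables were read as 1 to 3. Of 23927 names, 2 date-like names that stand for 2 genes and 6 genes with failed estimates listed at 0 were left out, leaving 23919.

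Fragments were tested with edgeR 4.0.16 in R 4.3.3 (TMM, filterByExpr, robust quasi-likelihood F test, Benjamini-Hochberg over all genes tested, threshold 0.05). Genotypes were compared within a stage from 6 libraries, and stages and interactions from 12. The SE is the log2 fold change divided by the root of F. Orders used plain CPM, and profiles used log2 CPM with a prior count of 2. Depth is 14361919 to 60672151 fragments per library, and counting intervals are 95% exact and cover counting error only. No replicates were duplicates. The test was also run on counts simulated with edgeR's own fitted dispersions, which cannot show whether that model holds for these data. Alternatives were RLE size factors, DESeq2 1.42.0, leaving out the low-count filter or the robust step, a joint fit of all 18 libraries, a block for the replicate number, limma 3.58.1 on log2(RPKM + 1) and log2(RPKM + 0.1) for genotype comparisons, and leaving out each library of a contrast.

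The members and the 11 lists (131 of 133 genes found) were chosen with earlier results of these data known. Named genes are the 6 members, Pitx1, up to 4 genes of a list that passed a knockout comparison or interaction, up to the 3 most abundant of a list, and the 3 profiles most like each member. Not all are printed, and genes named outside the rule were chosen after their values were seen. The values of the members' median and the matrix list without wild-type replicate 3 of E12.5 were added after seeing the data.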

Additional observations from a re-analysis of the deposited data

How the results depend on the processing

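Of 672 alternative values of the members, 615 kept their direction and side of the threshold, 13 gained a call, 19 lost one and 25 changed sign. Where no other cause is stated, the cause was not tested. Genes called between genotypes numbered 3 at E9.5, 286 at E11.5 and 2 at E12.5. DESeq2 gave 20, 1280 and 452, and fitting all 18 libraries jointly gave 0, 692 and 23. Without the filter they were 525 at E11.5 and 5 at E12.5, and limma on log2(RPKM + 1) gave 149 and 4, with 5 at E12.5 on log2(RPKM + 0.1). The interaction from E11.5 to E12.5, with 1 gene called, gave 112 by DESeq2, 2 without the filter, 0 without the robust step and 0 in the joint fit. That from E9.5 to E11.5, with 4 called, gave 379 by DESeq2, 0 without the robust step and 15 in the joint fit. Leaving out 1 library gave 0 to 2 genes at E9.5, 9 to 643 at E11.5, 1 to 15 at E12.5, 0 to 5 for the later interaction and 0 to 9 for the earlier. Calls at E11.5 were 138 higher and 148 lower, and those of DESeq2 at E12.5 were 107 higher and 345 lower. Alpl at E12.5, at -0.00, turned to 0.00378 without the filter, 0.0238 by limma on log2(RPKM + 1) and 0.0450 on log2(RPKM + 0.1). Leaving out 1 library turned the sign of log2 changes that had not passed. Alpl ranged from -0.65 to 0.0360 at E9.5 and from -0.20 to 0.29 at E12.5. Spp1 ranged from -0.82 to 0.24 at E9.5, -0.13 to 0.33 at E11.5, -1.14 to 0.25 at E12.5, -0.62 to 0.50 for E12.5 against E11.5 and -0.0736 to 0.99 for E11.5 against E9.5, both in the wild type. In the later interaction Runx2 ranged from -0.42 to 0.19, Spp1 from -1.24 to 0.15 and Sparc from -0.47 to 0.0564, and in the earlier one Sp7 from -0.0272 to 0.43, Alpl from -0.31 to 0.38 and Spp1 from -0.15 to 0.92. With the replicate number as a block, 0 genes were called at E9.5, 100 at E11.5 (24 higher, 76 lower), 386 at E12.5 (69 higher, 317 lower) and 0 in the earlier interaction. Under that block Alpl at E12.5 was 0.0375, Sparc at E11.5 lost its call (edgeR adjusted p = 0.0819), and Runx2 at E11.5 and E12.5 (0.0420 and 0.0159) and Sp7 at E12.5 (0.0364) passed. The numbers do not pair libraries by the labels: correlations of same-numbered libraries were -0.00963, -0.438 and -0.388 at E9.5, 0.00836, -0.475 and -0.0436 at E11.5 and 0.299, 0.0422 and 0.278 at E12.5, where each library correlated best with its own number, a hint from the data and not the design. Depth limits Runx2 at E9.5 and Ibsp later.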
